A study of Drosophila melanogaster with 36 samples.

Results

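Odorant binding protein (Obp) genes were followed across heads and abdomens of Drosophila melanogaster females that had mated or stayed virgin. They were taken as every line of the deposited count table whose FlyBase gene identifier carries a symbol of Obp followed by a digit, which gave 51 genes of 17552. The rule used names and no measured value. The family gene lush has a symbol outside the rule and was counted among the partner genes below. Polygamous-mated females (P1 to P3) had mated with males of 3 populations that evolved in groups of 5 females and 5 males. Monogamous-mated females (M1 to M3) had mated with males of 3 populations kept as enforced pairs. All 6 male populations came from the IV stock, were held at 200 flies and had evolved for 182 generations before 1 generation of shared rearing. Virgin females were unmated, and females of every group belonged to the IV base population, with no transgene or mutation given in the labels. Mating took place at 3 days of age, and females of all groups were frozen at 4 days, 24 hours after mating in the mated groups. Each library came from 20 pooled heads or 20 pooled abdomens, with 3 libraries per group and tissue and 18 in all. A mated library stands for 1 male population, so the spread within P and within M includes any difference among the 3 populations. The labels do not say if the 3 virgin pools were reared apart, and their spread may be technical. P-values measure no more than the spread among these pools.

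Odorant binding proteins are small secreted proteins with a pocket for hydrophobic molecules. In the antenna, support cells release them into the fluid around the dendrites of olfactory neurons, where they carry, buffer or remove odorants and pheromones. Others occur in taste bristles of the legs, wings and mouthparts, in glia and fat body, and in seminal fluid that males pass to females. The Plus-C members have extra cysteines and the Minus-C members lack a pair of the conserved ones.

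Depth was 40396031 to 64761633 counts per library in heads and 41057456 to 56772245 in abdomens. All 14 markers of eye and nervous system were detected in both tissues, with a sum of 71851 to 86657 counts-per-million (CPM) in heads and 183 to 238 CPM in abdomens, and 9 ovary markers summed to 7.78 to 12.4 CPM in heads and 2924 to 9517 CPM in abdomens. Several libraries stood apart. Midgut protease transcripts summed to 6737 CPM in head M1, 14011 CPM in head M2 and 9072 CPM in head virgin 1, and to 12.7 to 96.2 CPM in the other 6 heads. Head virgin 2 had the lowest levels of most antennal genes, as described with the head results. In abdomens, 6 genes of early embryos (nullo, bnk, halo, term, ftz and sna) summed to 5.97 CPM in M2, 6.26 CPM in P1 and 9.44 CPM in P3. In the other 6 libraries they summed to at most 0.211 CPM. They are a part of the 21 early embryo genes found in the table. All 21 summed to 109, 110 and 111 CPM in M2, P1 and P3 and to 97.9 to 109 CPM in virgins, a sum that does not set these libraries apart. In it slam alone had 63.9 to 98.1 CPM in every abdomen. Of 16 early embryo genes tested there, 7 were higher and 1 lower in mated females.

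The family was far more abundant in heads. The summed level of the 51 genes was 3820, 4429 and 4765 CPM (lowest, median and highest of 6) in mated heads and 3637, 4118 and 4435 CPM in the 3 virgin heads. In abdomens it was 217, 255 and 365 CPM in mated females and 87.4, 90.9 and 96.5 CPM in virgins, so that mated and virgin abdomens did not overlap. In heads, 28 members averaged at least 1 CPM and 11 at least 100 CPM. In abdomens, 12 averaged at least 1 CPM, 5 at least 10 CPM and 0 reached 100 CPM. All these values are relative to the library total and follow changes in the rest of the library as well as in the gene. In pooled tissue, fewer cells of a type and less RNA per cell cannot be told apart.

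Per kilobase of annotated exon, Obp56e led in heads. Its product is known from seminal fluid, and its mean was 1048 CPM per kb over 9 head libraries and 1.77 CPM per kb over 9 abdomens. Of its exon bases, 84.4% are shared with the antisense RNA gene asRNA:CR44509, and without the strand setting of the counting the reads of both cannot be told apart. Obp19d, an antennal protein gene, followed with 909 CPM per kb in heads and 1.42 CPM per kb in abdomens. Next in heads were Obp99c at 702 CPM per kb, the antennal genes Obp56d at 680 and Obp99a at 417 CPM per kb, and Obp56g at 326 CPM per kb, whose product helps to form the mating plug. The order in abdomens was another one. Obp99c had 77.8 CPM per kb there, followed by Obp19c at 53.8, Obp99a at 48.4, Obp56a at 44.8, Obp56d at 32.0 and Obp57c at 6.72 CPM per kb. This order pools mated and virgin abdomens. Obp19c and Obp56a had 78.5 and 62.5 CPM per kb in mated abdomens, behind Obp99c at 89.9, against 4.40 and 9.19 CPM per kb in virgins, where Obp99a at 35.6 and Obp56d at 10.3 CPM per kb stood above both.

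**Figure D1:**
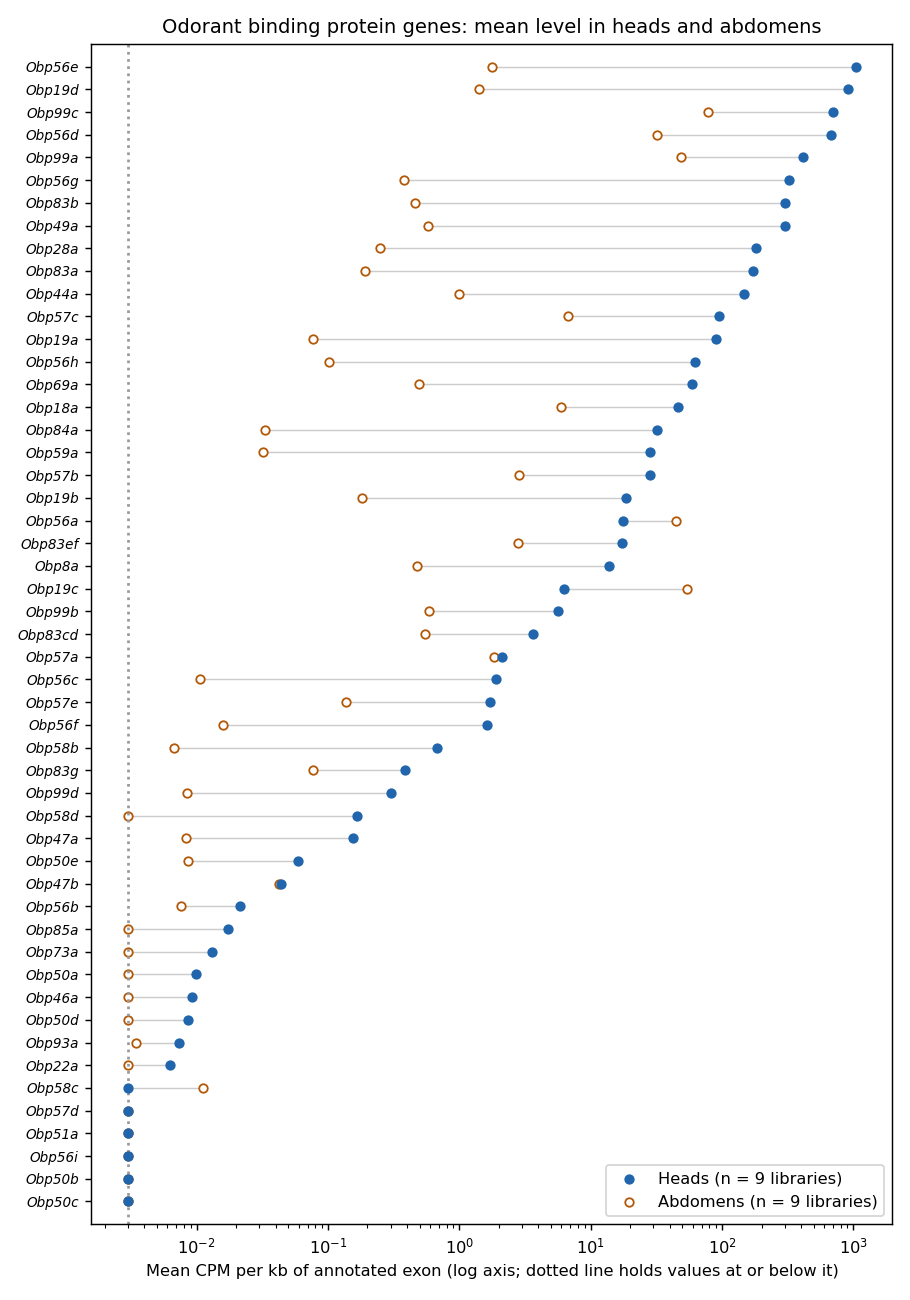
Mean level of each of the 51 Obp genes in CPM per kb of annotated exon (log axis) over 9 head libraries (filled) and 9 abdomen libraries (open). Most genes sit far to the right in heads, for example Obp56e at 1048 CPM per kb in heads and 1.77 in abdomens, while Obp19c and Obp56a sit to the right in abdomens; values on the dotted line are at or below it.

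Many members were silent or nearly so. Obp50b, Obp50c, Obp51a, Obp56i and Obp57d had 0 counts in all 18 libraries, which allows a level of up to 0.00334 CPM for 3 counts over all libraries, counting error alone. The annotation gives Obp50b and Obp50c the same exon bases and places all exon bases of Obp57d within Cpr57A, and how such shared reads were counted is not given in the sources. In heads 6 members had no count and 5 had 1 to 3 counts over 9 libraries. In abdomens 12 had no count and 7 had 1 to 3. Of the 13 Plus-C genes, Obp49a was the abundant one, at 235 CPM in heads, and in heads the whole group summed to 161 to 289 CPM. In all, 19 members passed the low-count filter in neither tissue, 11 passed in heads alone and 21 in both.

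The genes lie in 28 places when members within 25 kb are joined. Neighbours were often expressed at unlike levels. In the cluster of 4 genes at X:20415744-20420979 (BDGP6), mean head levels were 1001 CPM for Obp19d, 58.0 CPM for Obp19a, 12.0 CPM for Obp19b and 6.17 CPM for Obp19c. In abdomens the same genes averaged 1.57, 0.0498, 0.117 and 52.6 CPM in that order, so Obp19c was the one of the 4 with an appreciable abdominal level. In the cluster of 6 genes at 2R:19697723-19713976, Obp56d and Obp56e had 627 and 558 CPM in heads, Obp56a had 9.61 CPM, and Obp56b, Obp56c and Obp56f had 0.0121, 1.86 and 0.859 CPM. Obp56a was the one of the 6 with a higher mean in abdomens than in heads, at 24.5 CPM.

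Head and abdomen levels were compared in a model over all 18 libraries with edgeR's quasi-likelihood test, Benjamini-Hochberg adjustment over all genes and a threshold of 0.05. Of 33 members tested, 30 were higher in heads and 2 lower, where 92.4% of all genes were called, 45.5% higher and 46.9% lower. Of the 33, 12 did not pass the filter in abdomens alone and entered through the heads, where they are high, so that their direction was fixed by the filter. Of the 21 that passed it in both tissues, 18 were higher in heads and 2 lower. Every head library lay above every abdomen library for 18 of the 21, the same 18 that were called higher. This held for 34.1% of all genes. The median log2 difference was 4.12 over the 21 members and -0.07 over all 11631 genes. Of the 10 antennal members, the 6 that passed the filter in both tissues were all higher in heads, with a median of 8.20, and Obp19a, Obp28a, Obp59a and Obp84a entered through the heads. Obp83a, an antennal protein gene known as OS-F, had 75.4, 172 and 215 CPM (lowest, median and highest of 9) in heads and 0.104, 0.165 and 0.293 CPM in abdomens, a log2 difference of 9.86 ± 0.21 (SE, adjusted p = 1.9e-16). Of 5 taste members that passed the filter in both tissues, 4 were higher in heads. The exception was Obp57a, with 1.18 ± 0.856 CPM in heads and 1.02 ± 0.592 CPM in abdomens (SD, n = 9 each), and a log2 difference of 0.44 ± 0.29 (adjusted p = 0.149). The 3 seminal members that passed it in both tissues, Obp8a, Obp56e and Obp56g, were higher in heads. The 2 members lower in heads were Obp19c, with a log2 difference of -1.95 ± 0.24 (adjusted p = 1.3e-06), and Obp56a, with -0.66 ± 0.11 (adjusted p = 3.7e-05). For both, virgin abdomens did not exceed the range of the heads and mated abdomens lay above it.

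In abdomens, mated females had higher levels of 11 of the 21 members tested, and 0 members were lower, with 12 at an unadjusted p below 0.05. The background was large, since 54.2% of all 10350 genes were called, 29% higher and 25.2% lower. The members' share of 52.4% called is close to that background, and their median log2 change was 0.56 against 0.04 over all genes. For 9 of the 21 tested, every mated library lay above every virgin library, where 24.5% of all genes did so. All 9 were among the 11 called, and they include Obp8a and Obp83cd, which passed the filter through the mated libraries. The count of members called lower was also 0 with DESeq2 and with limma voom, each of which called the same 11 members. Without virgin 2, 8 of these members were higher and 1 member lower, Obp57a, with a log2 change of -1.04 (adjusted p = 0.0311) against -0.67 with all libraries (adjusted p = 0.155). It depended on the scale: with libraries scaled on muscle and renal tubule genes the median of all genes moved to -0.96, 367 genes were higher and 7154 lower, and 4 members were higher and 6 lower (Obp18a, Obp19d, Obp56g, Obp57a, Obp57b and Obp57c). Without scaling on those genes 2999 genes were higher and 2609 lower.

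Obp19c showed the largest change. It lies at X:20417921-20418964 (FBgn0031111). It had 89.0, 113 and 38.2 CPM in abdomens of females mated to P1, P2 and P3 males and 74.1, 68.5 and 77.6 CPM in those mated to M1, M2 and M3 males, against 1.78, 6.10 and 5.04 CPM in virgins 1 to 3. P2 was the highest and P3 the lowest of the mated libraries, and even P3 was far above the highest virgin library. The log2 change was 4.18 ± 0.55 (SE, adjusted p = 0.00102), or 18.2-fold. Its neighbour Obp19d had 1.71 CPM in mated and 1.28 CPM in virgin abdomens and did not pass (adjusted p = 0.0907), while Obp19a and Obp19b were below the filter. In heads Obp19c stayed at 6.25 ± 0.834 CPM in mated (n = 6) and 6.03 ± 0.955 CPM in virgin females (n = 3, SD), with a log2 change of 0.10 ± 0.14 that did not pass (adjusted p = 0.775).

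Among antennal members, 2 of 6 tested rose. Obp56d, which lies at 2R:19702924-19703915 (FBgn0034470), had 42.2, 56.9 and 32.8 CPM in P abdomens and 32.3, 32.1 and 40.5 CPM in M abdomens, against 11.7, 8.22 and 8.48 CPM in virgins. The groups did not overlap, and the log2 change was 2.08 ± 0.21 (adjusted p = 1.6e-04). Obp99a had 33.7, 51.4 and 29.2 CPM in P abdomens and 33.2, 20.97 and 32.1 CPM in M abdomens, against 21.1, 22.5 and 21.6 CPM in virgins. The M2 library fell just below all virgins. The log2 change was 0.65 ± 0.21 (adjusted p = 0.0264), a call lost in 5 of the 9 models that left out 1 replicate. The other 4, Obp19d, Obp69a, Obp83a and Obp83b, had log2 changes of 0.18 to 0.45 and did not pass.

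Among taste members, 1 of 5 tested rose. Obp57c, at 2R:20503584-20504202, had 3.50, 4.52 and 5.35 CPM in P abdomens and 4.33, 3.46 and 3.87 CPM in M abdomens, against 3.36, 3.04 and 2.25 CPM in virgins. The gap between the lowest mated and the highest virgin library was small, and the log2 change was 0.56 ± 0.19 (adjusted p = 0.0286), a call lost in 4 of 9 such models and turned to lower by the muscle and tubule scaling. Its close neighbour Obp57b changed by 0.33 ± 0.18 and did not pass (adjusted p = 0.145).

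Among seminal members, 2 of 3 tested rose, both from low levels. Obp56e had 0.881, 1.07 and 1.28 CPM (lowest, median and highest of 6) in mated and 0.672, 0.641 and 0.638 CPM in virgin abdomens, a log2 change of 0.74 ± 0.19 (adjusted p = 0.00972). Obp8a had 0.248 to 0.546 CPM in mated and 0.0988 to 0.110 CPM in virgin abdomens, a log2 change of 1.55 ± 0.31 (adjusted p = 0.00265). Obp8a and Obp83cd lay under the filter's level of 0.191 CPM in at least 1 virgin library, so they passed the filter through the mated libraries; for Obp8a this was so in all 3 virgin libraries. Transcripts of the 23 male seminal fluid genes found in the table summed to 0.299 to 0.477 CPM in mated and 0.106 to 0.297 CPM in virgin abdomens, with 10 of the genes at 0 in all mated and 15 at 0 in all virgin abdomens. EbpIII and Est-6, counted among the partner genes below, are not in this sum. The part of male seminal fluid transcripts in these results was not tested.

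The remaining 5 members that rose belong, like Obp19c, to none of these lists. Obp56a, at 2R:19697723-19698508 (FBgn0034468), had 31.7, 44.6 and 43.2 CPM in P abdomens and 22.2, 31.2 and 32.3 CPM in M abdomens, against 5.61, 5.36 and 4.10 CPM in virgins. All 6 mated libraries stood well above the virgins, by a log2 change of 2.77 ± 0.18 (adjusted p = 4.7e-05), or 6.81-fold. Obp83ef and Obp83cd, double-domain members on opposite strands at 3R:6109642-6111034 and 3R:6108134-6109733, share 92 exon bases. Obp83ef had 3.22, 3.94 and 3.71 CPM in P abdomens and 3.28, 2.68 and 3.53 CPM in M abdomens, against 0.870, 0.787 and 0.574 CPM in virgins, a log2 change of 2.16 ± 0.20 (adjusted p = 1.0e-04). Obp83cd had 0.438 to 0.926 CPM in mated and 0.138 to 0.256 CPM in virgin abdomens, with a log2 change of 1.41 ± 0.28 (adjusted p = 0.00255). Neither gene overlapped between mated and virgin libraries. Obp99c, the most abundant member in abdomens per kb, had 72.2, 73.2 and 52.2 CPM in P abdomens and 71.8, 43.6 and 47.8 CPM in M abdomens, against 33.9, 39.1 and 34.5 CPM in virgins. M2 was the mated library nearest to the virgins, and the log2 change was 0.78 ± 0.19 (adjusted p = 0.00703). Obp44a, a gene known from glia, averaged 1.26 ± 0.419 CPM in mated (n = 6) and 0.670 ± 0.198 CPM in virgin abdomens (n = 3, SD), with overlapping libraries and a log2 change of 0.90 ± 0.32 (adjusted p = 0.034) that lost its call in 6 of 9 models without 1 replicate.

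**Figure D2:**
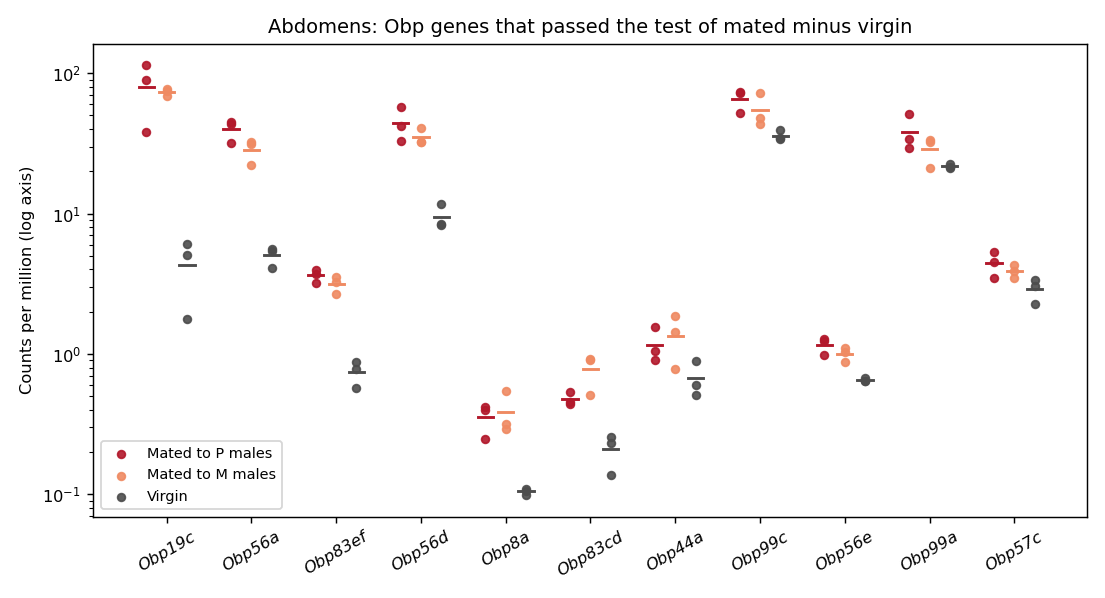
Abdominal level in CPM (log axis) of the 11 Obp genes that passed the test of mated minus virgin, with 1 point per library and a bar at the mean of 3 libraries for females mated to P males, females mated to M males and virgins. Obp19c lies at 38.2 to 113 CPM in mated and 1.78 to 6.10 CPM in virgin abdomens, and Obp44a and Obp99a overlap between mated and virgin; under scaling on muscle and tubule genes the changes of Obp44a, Obp56e, Obp57c, Obp99a and Obp99c turn negative.

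The changes of Obp19c, Obp56a, Obp56d and Obp83ef kept their sign and passed under all 18 alternatives run for them, including the scaling on muscle and tubule genes, where they were 3.17, 1.79, 1.08 and 1.21. Obp44a, Obp56e, Obp57c, Obp99a and Obp99c changed sign under that scaling and stood at -0.10, -0.23, -0.41, -0.37 and -0.23, all above its median of -0.96 over all genes. Of the 21 members, 13 changed sign there. Without M2, P1 and P3, the abdomens with embryo transcripts, an alternative added after seeing the data, 9 members were called, all among the 11, and Obp44a and Obp57c were not. Other tissue lists moved in these abdomens too. Muscle genes rose in 19 of 22 tested and summed to 3317 to 3799 CPM in mated and 1694 to 2070 CPM in virgin abdomens, with none of the 23 at 0. Tubule genes rose in 10 of 12 and summed to 438 to 499 CPM in mated and 295 to 357 CPM in virgin abdomens, with none at 0. Fat body genes rose in 8 of 12 and summed to 11997 to 22325 CPM in mated and 4802 to 6561 CPM in virgin abdomens, with 1 of 15 at 0 in the virgins. Most of this sum was the yolk protein genes Yp1, Yp2 and Yp3. They averaged 7562, 5190 and 2888 CPM in mated and 2482, 1155 and 816 CPM in virgin abdomens. Midgut protease genes rose in 24 of 28 and summed to 4198 to 9123 CPM in mated and 1467 to 3212 CPM in virgin abdomens, with 1 of 30 at 0 in the mated and 2 at 0 in the virgins. Apart from the muscle and tubule scaling, the part of these tissues in the rise of the Obp genes was not tested.

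Of 15 partner genes of olfactory sensilla 8 were tested in abdomens, 4 rose and 0 fell, where 54.2% of all genes were called and 29% rose; their median log2 change was 0.94. EbpIII, which like Phk-3 encodes a chemosensory protein of the insect pheromone binding A10/OS-D family, averaged 205 CPM in mated and 84.6 CPM in virgin abdomens, a log2 change of 1.31 ± 0.14 (adjusted p = 1.9e-04). Phk-3 changed by 1.84 ± 0.16 (adjusted p = 6.8e-05). Os-C, which encodes an antennal secreted protein, changed by 1.54 ± 0.25 (adjusted p = 8.7e-04), and Est-6, an esterase gene, by 0.94 ± 0.12 (adjusted p = 3.6e-04). Which abdominal cells express these genes was not tested. Orco, which encodes the common odorant co-receptor, and lush, whose product binds alcohols and the male pheromone cis-vaccenyl acetate, were below the filter in abdomens, at 0.0827 and 0.0865 CPM in mated females and 0.0791 and 0.0649 CPM in virgins.

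In heads, 7 of 32 members tested differed between mated and virgin females, 3 higher and 4 lower. Over all 10886 genes 2.21% were called, 0.863% higher and 1.35% lower, while 21.9% of the tested members were called. At an unadjusted p below 0.05 there were 13 members. Mated and virgin libraries did not overlap for 10 members, 5 higher and 5 lower, where 8.27% of all genes did not, 2.37% higher and 5.9% lower. With libraries scaled on muscle and tubule genes, 6 of the 7 were called in the same directions, Obp57c not among them; over all genes that scaling gave 253 higher and 85 lower, against 94 higher and 147 lower without it.

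Of the 6 Minus-C genes, 5 were tested in heads and 1 fell, with the largest change there. Obp99b, at 3R:29716254-29716896 (FBgn0039685) and known for higher expression in males in head fat body, had 1.59, 2.25 and 1.88 CPM in P heads and 2.07, 1.37 and 1.17 CPM in M heads, against 7.93, 7.30 and 4.68 CPM in virgins. The highest mated library was below the lowest virgin library by more than the spread within the mated group. The log2 change was -1.88 ± 0.23 (adjusted p = 0.00533), or 3.69-fold lower in mated heads, and it lay between -2.09 and -1.73 when each library was left out in turn, passing each time. Its neighbour Obp99d had 0.0686 to 0.216 CPM in mated and 0.0657, 0.297 and 0.198 CPM in virgin heads and was below the filter. The other pair of the group did not pass. Obp99c had 502, 550 and 446 CPM in P heads and 479, 439 and 373 CPM in M heads, against 482, 453 and 506 CPM in virgins, a log2 change of 0.00 ± 0.11 (adjusted p = 0.996). Obp99a had 200, 231 and 331 CPM (lowest, median and highest of 6) in mated and 266, 241 and 330 CPM in virgin heads, a log2 change of -0.17 ± 0.13 (adjusted p = 0.579). For both, the virgin range lay within the mated range.

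Fat body genes moved in mated heads as well. Of 13 tested, 2 rose, 1 fell and 10 did not pass. The lipid transfer gene Apoltp changed by 0.53 ± 0.07 (adjusted p = 0.00738), the yolk protein gene Yp2 by 0.98 ± 0.18 (adjusted p = 0.0287), and sxe2, a predicted lipase gene with sex-biased expression in heads, by -0.46 ± 0.08 (adjusted p = 0.0155). The 15 genes of the list summed to 89664 to 127622 CPM in mated and 72669 to 85339 CPM in virgin heads, without overlap and with none at 0. Most of this sum was Yp1, Yp2 and Yp3. They averaged 45095, 25656 and 22116 CPM in mated and 36391, 13429 and 15252 CPM in virgin heads, and Yp1 and Yp3 did not pass. The sum therefore does not show a rise of the list as a whole. Among the others, apolpp averaged 6818 CPM in mated and 7539 CPM in virgin heads, and Lsp2 324 and 900 CPM, and neither passed. The part of the fat body genes in the change of Obp99b was not tested.

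Among 8 taste members tested in heads, 2 rose and 2 fell. Obp49a, a Plus-C gene at 2R:12690059-12690955 (FBgn0050052) whose product is needed for bitter compounds to suppress the sweet response, had 254, 237 and 289 CPM in P heads and 257, 247 and 275 CPM in M heads, against 160, 207 and 185 CPM in virgins. All 6 mated libraries were above the highest virgin library, by a log2 change of 0.54 ± 0.08 (adjusted p = 0.0098). Obp56h, whose loss in males shortens the time to mating, had 39.9, 40.5 and 40.5 CPM in P heads and 38.9, 38.0 and 50.5 CPM in M heads, against 25.6, 33.1 and 27.6 CPM in virgins. M3 stood above the other mated libraries, the groups did not overlap, and the log2 change was 0.57 ± 0.09 (adjusted p = 0.0152). Obp57b, at 2R:20504251-20505136 (FBgn0043534), had 18.8, 16.5 and 22.8 CPM in P heads and 19.8, 19.7 and 24.4 CPM in M heads, against 28.5, 29.2 and 29.0 CPM in virgins, a log2 change of -0.47 ± 0.08 (adjusted p = 0.0191). The virgins lay close together and above all mated heads. Obp57c, which lies beside Obp57b on the same strand, had 41.9, 37.9 and 54.1 CPM in P heads and 44.9, 47.4 and 56.6 CPM in M heads, against 60.0, 70.2 and 65.9 CPM in virgins, a log2 change of -0.43 ± 0.09 (adjusted p = 0.0424). For both genes P2 was lowest and M3 highest among the mated heads. Obp57a, next to them on the same strand, had 0.669 to 1.03 CPM in mated heads and 0.854, 1.00 and 3.44 CPM in virgins 1 to 3. Virgin 3 was the high library for Obp57a in abdomens as well, at 2.49 CPM against 0.585 to 1.24 CPM in the other 8. Neither comparison passed with all libraries.

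The other members that passed in heads were Obp56a and Obp83ef. Obp56a had 6.78, 6.93 and 9.94 CPM in P heads and 6.57, 7.64 and 6.63 CPM in M heads, against 11.1, 13.8 and 17.1 CPM in virgins. The groups did not overlap, P3 was the highest mated library, and the log2 change was -0.87 ± 0.15 (adjusted p = 0.0191). Obp83ef had 19.3, 22.3 and 16.7 CPM in P heads and 14.2, 16.9 and 21.3 CPM in M heads, against 8.37, 11.6 and 9.93 CPM in virgins, a log2 change of 0.92 ± 0.15 (adjusted p = 0.0174). All mated heads were above the virgins. Its neighbour Obp83cd had 3.10 to 4.46 CPM in mated and 2.21 to 3.70 CPM in virgin heads, a log2 change of 0.35 ± 0.17 (adjusted p = 0.35). Obp44a did not pass, with 161, 137 and 123.1 CPM in P heads and 153, 98.6 and 89.1 CPM in M heads, against 207, 228 and 238 CPM in virgins, a log2 change of -0.78 ± 0.19 (adjusted p = 0.0965) although the groups did not overlap. DESeq2 called it, together with Obp56d and all 7 above.

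**Figure D3:**
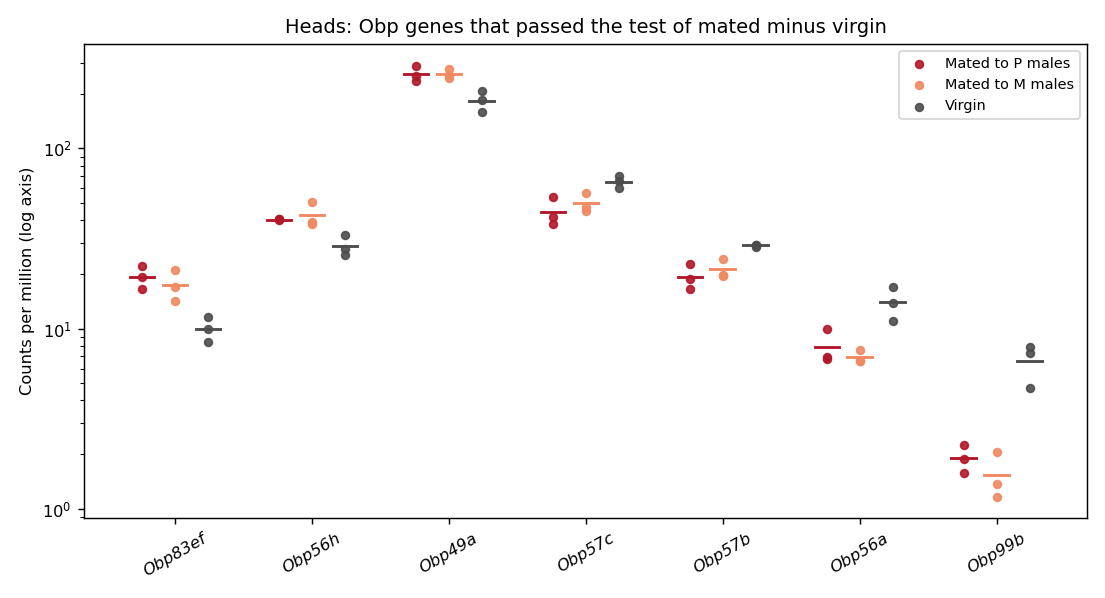
Head level in CPM (log axis) of the 7 Obp genes that passed the test of mated minus virgin, with 1 point per library and a bar at the mean of 3 libraries for females mated to P males, females mated to M males and virgins. Obp83ef, Obp56h and Obp49a are higher in all 6 mated heads than in the 3 virgin heads, and Obp57c, Obp57b, Obp56a and Obp99b are lower.

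The head calls rested on few libraries. Of the midgut protease genes 19 were tested in heads and 0 passed, and likewise 0 of 23 muscle, 0 of 10 tubule and 0 of 1 seminal fluid genes. Without the 3 protease-rich heads (M1, M2 and virgin 1), which leaves 4 mated and 2 virgin heads and 3 residual degrees of freedom, 0 members and 0 of 11130 genes were called, with 10 members at an unadjusted p below 0.05. The log2 changes then were -1.96 for Obp99b (adjusted p = 0.0607), 0.46 for Obp49a, 0.59 for Obp56h, 0.93 for Obp83ef, -1.08 for Obp56a, -0.41 for Obp57b and -0.42 for Obp57c. With the summed protease level as a covariate over all 9 heads, the same 7 members were called. The count was 3 without virgin 1, 1 without virgin 3 and 4 without P1, and all 7 kept their sign in each of the 19 alternatives run for them.

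The 10 antennal members did not pass in heads, and 1 library bears on most of them. Head virgin 2 was the lowest of the 9 heads for 8 of these 10, against 12.1% of all genes tested. Obp83a had 75.4 CPM in virgin 2, against 148 to 215 CPM in the other 8 heads, a ratio of 0.43 to their median. Obp83b (OS-E) had 78.2 CPM there, against 153 to 204 CPM in the others. Obp59a, a gene of the antennal humidity-sensing bristles, had 16.0 CPM there, against 26.7 to 35.7 CPM in the others. Over the 10 genes the ratio ran between 0.43 and 0.98 with a median of 0.55. Of 15 partner genes, 13 were also lowest in that library, Orco at a ratio of 0.51, lush at 0.40, Os-C at 0.46 and Ir8a, an ionotropic co-receptor gene, at 0.33. None of 6 taste members and none of 3 seminal members with at least 5 CPM was lowest there, with ratios of 0.83 to 1.38 for the taste members. How much antennal tissue each pool held is not given in the labels.

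**Figure D4:**
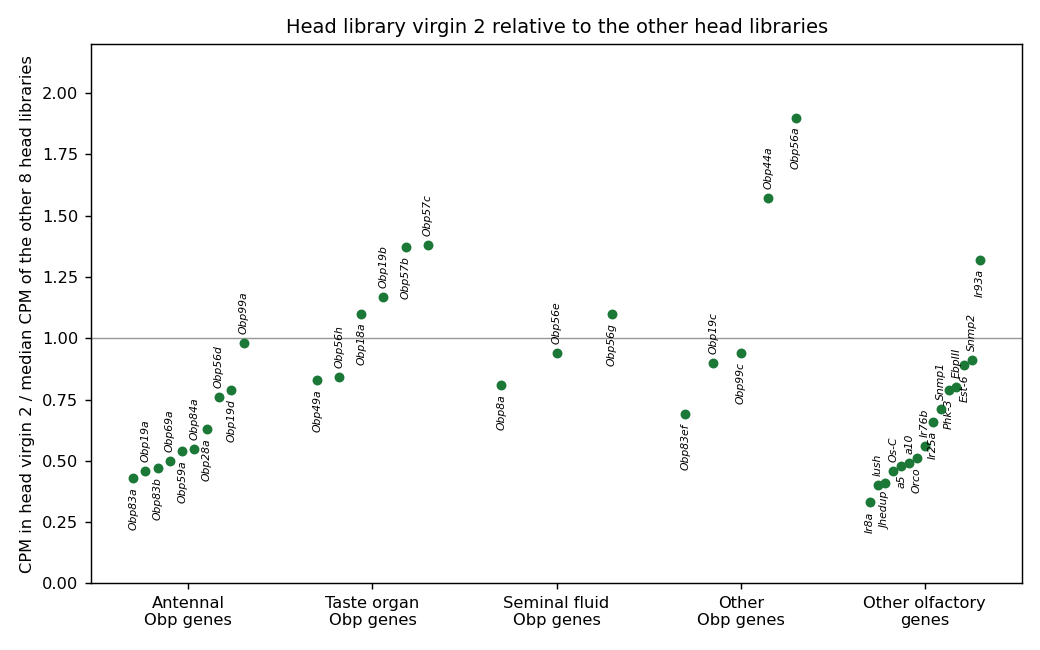
Level in head virgin 2 divided by the median of the other 8 head libraries, 1 point per gene, for antennal, taste, seminal and other Obp genes with a mean of at least 5 CPM in heads and for 15 other genes of olfactory sensilla; the line marks a ratio of 1. Antennal Obp genes lie between 0.43 and 0.98 and the taste members between 0.83 and 1.38.

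With all heads, the antennal members had a median log2 change of 0.20, and 0 of 10 passed. The largest was Obp56d, with 695, 720 and 652 CPM in P heads and 769, 610 and 585 CPM in M heads, against 564, 482 and 564 CPM in virgins, a log2 change of 0.37 ± 0.12 (adjusted p = 0.154) without overlap. Obp83a changed by 0.24 ± 0.31 (adjusted p = 0.748) and by -0.09 without virgin 2. Obp19a, Obp28a, Obp59a, Obp69a and Obp83b also changed sign without that library, at -0.08, -0.20, -0.15, -0.09 and -0.21. None of the 15 partner genes passed in heads, where their median log2 change was 0.15, and lush had 18.2 to 25.3 CPM in mated and 8.97 to 24.7 CPM in virgin heads. Among seminal members, 0 of 4 tested passed in heads. Obp56e had 625.5, 513 and 563 CPM in P heads and 723, 608 and 525 CPM in M heads, against 495, 510 and 457 CPM in virgins, a log2 change of 0.33 ± 0.12 (adjusted p = 0.212), and Obp56g changed by -0.07 ± 0.07 (adjusted p = 0.639).

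The mating effect differed between tissues for several members. Set side by side, Obp83ef was higher in mated females in both tissues, while Obp56a and Obp57c were lower in mated heads and higher in mated abdomens. For Obp57c this rests on calls that were often lost: the head call held in 7 of 19 alternatives and was lost in 8 of the 9 models without 1 replicate, and in abdomens the gene was called lower under the muscle and tubule scaling, at -0.41. A further 8 passed in abdomens alone, and among the 21 tested in both tissues 3 passed in heads alone (Obp49a higher, Obp57b and Obp99b lower). A call in 1 tissue alone does not show a difference, so the difference was tested in the model over 18 libraries. It passed for 13 of 33 members, all with a lower effect in heads than in abdomens, where 37.2% of all 11631 genes were called, 18.6% lower and 18.6% higher. The median difference, heads minus abdomens on the log2 scale, was -0.34 over the members and -0.03 over all genes. The lean to lower was not particular to the Obp genes. It passed as lower for 21 of 23 muscle, 8 of 12 tubule, 5 of 14 fat body and 4 of 15 partner genes. Their medians were -1.07, -0.79, -0.89 and -0.43, with 0 higher in each list. Of 18 early embryo genes 7 were lower and 1 higher. Among the members the largest difference was -4.02 ± 0.51 for Obp19c (adjusted p = 1.2e-04), and Obp56a followed with -3.58 ± 0.25 (adjusted p = 7.3e-07). Obp99b differed by -2.12 ± 0.43 (adjusted p = 0.00194), with 0.382 ± 0.183 CPM in mated (n = 6) and 0.291 ± 0.0719 CPM in virgin abdomens (n = 3, SD). Obp56d differed by -1.65 ± 0.24 (adjusted p = 1.8e-04) and Obp44a by -1.61 ± 0.37 (adjusted p = 0.00449). Obp83ef differed by -1.17 ± 0.23 (adjusted p = 0.00148), a smaller rise in heads than in abdomens. Obp8a, Obp19b, Obp57b, Obp57c, Obp83cd, Obp99a and Obp99c differed by -1.24 to -0.72. Of these, Obp19b lost the call in 7 of the 9 models that left out 1 replicate, Obp99a in 6 and Obp99c in 3. Obp19b was below the filter in abdomens and entered the model through the heads. It had 0.0573 to 0.247 CPM in mated and 0 to 0.0988 CPM in virgin abdomens. Scaling on muscle and tubule genes, which put the median of all genes at -0.96 in abdomens, was fitted within each tissue and not for this difference.

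**Figure D5:**
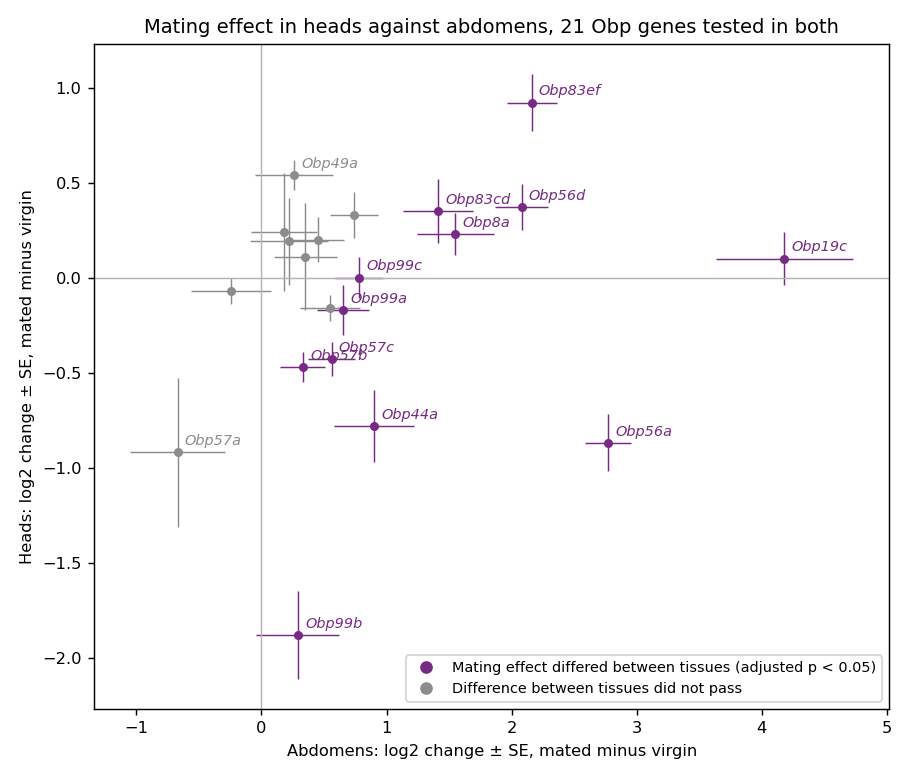
Log2 change ± SE of mated minus virgin in heads (vertical) and abdomens (horizontal) for the 21 Obp genes tested in both tissues; dark points differed between tissues in the model over 18 libraries. Obp56a lies at -0.87 in heads and 2.77 in abdomens, Obp19c at 0.10 in heads and 4.18 in abdomens, and Obp99b at -1.88 in heads and 0.29 in abdomens.

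The regime under which the males had evolved was not followed by a detectable difference in any member. In abdomens 0 of 21 members and 0% of all genes were called for P minus M, and in heads 0 of 32 members and 0% of all genes, with edgeR's quasi-likelihood test. DESeq2 and limma voom also called 0 members, though DESeq2 called 10 genes in abdomens and 24 in heads. At an unadjusted p below 0.05 there were 4 members in abdomens and 4 in heads. In abdomens Obp83a had 0.293, 0.255 and 0.287 CPM in P females and 0.141, 0.104 and 0.122 CPM in M females, a log2 difference of 0.97 ± 0.27 (adjusted p = 0.9998). Obp99b had 0.439, 0.584 and 0.535 CPM in P abdomens and 0.176, 0.145 and 0.414 CPM in M abdomens, a log2 difference of 0.99 ± 0.37 (adjusted p = 0.9998). These were the 2 members without overlap there, higher in P, where 3.23% of all genes were. Obp56a differed by 0.47 ± 0.18 and Obp83cd by -0.67 ± 0.30 in abdomens.

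In heads, Obp19d had 1131, 1276 and 1134 CPM in P females and 936, 957 and 792 CPM in M females, a log2 difference of 0.37 ± 0.13 (adjusted p = 0.614). Obp99a had 240, 331 and 251 CPM in P heads and 200, 222 and 209 CPM in M heads, a difference of 0.37 ± 0.16 (adjusted p = 0.614). Obp19b, needed in taste bristles for the response to some amino acids, averaged 13.2 CPM in P heads and 10.1 CPM in M heads, a difference of 0.36 ± 0.13, and Obp18a differed by -0.22 ± 0.08. In heads 8 members were higher and 1 lower in P without overlap, where 11.3% of all genes were higher and 3.61% lower in that way. The protease-rich mated heads, M1 and M2, were both M libraries, while midgut protease transcripts summed to 14.9 to 96.2 CPM in P heads. For those 2 libraries, regime and protease content cannot be told apart. P minus M called 0 members without the 3 protease-rich heads and 0 with the protease covariate. A p that misses the threshold with 3 male populations a side does not show that the regimes act alike.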

How the data were processed

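The submitters' processing notes name Trimmomatic 0.33, TopHat2 2.1.0, HTSeq 0.6.1 and the BDGP6 build. The authors deposited whole-number counts per gene, unnormalized, for 2 sequencing runs of each library. The stranded kit is in the labels' protocols, while no source used here gives the strand setting, the treatment of ambiguous reads or the annotation release. Chi-square per degree of freedom was 1.81 to 3.32 between runs and 38.7 to 227 between replicate libraries, so runs were summed.

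Gene symbols, coordinates and exon lengths came from Ensembl release 115 of BDGP6, which held all 51 members. Counts were tested in R 4.3.3 with edgeR 4.0.16 (TMM, filterByExpr, robust quasi-likelihood test, prior count 2). P-values were adjusted over all genes. Standard errors are the log2 change over the square root of F. Models were fitted per tissue, mated being the mean of P and M, and over 18 libraries for tissue contrasts. Printed CPM are scaled on the library total alone. Biological variation (edgeR's coefficient) came to 0.172 for abdomens, 0.272 for heads. The main models were also run on counts simulated with the variation estimated in these data, and the alternatives were not.

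Named genes were members called in a comparison (up to 8 by smallest p), the 6 highest per kb in each tissue, the Obp99 genes, up to 4 partners per list and lush. Antennal, taste and seminal lists, and those of partners, fat body, seminal fluid, midgut protease, embryo, muscle, tubule, head and ovary genes, came from general knowledge. Members, lists and tests were chosen with earlier results of these data known, and the Plus-C, Minus-C and double-domain groups after values were seen. Equal replicate numbers were not treated as pairs within a tissue, and the labels do not say if they pair samples. Deviations of equal numbers correlated at -0.51 to 0.69 in heads and -0.43 to 0.03 in abdomens. In heads the values were 0.69 for virgin 3 and M3, 0.52 for virgin 1 and M1, and -0.51 for virgin 2 and M2. Such mixed signs do not settle the question. A mated head and abdomen of the same number share a male population, which the main model over 18 libraries did not use. Deviations of heads and abdomens of the same group and number correlated at -0.32 to 0.21. Alternatives were DESeq2 1.42.0, limma 3.58.1 voom, RLE scaling, no filter, single runs, muscle and tubule scaling, a replicate block, a protease covariate and leaving out libraries.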

Additional observations from a re-analysis of the deposited data

Results flagged for a closer look

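Within the 6 mated heads, a single library lay far from the other 5 for 5 members. They were Obp56a in P3 at 9.94 CPM, Obp56c in P1 at 2.56 CPM, Obp56h in M3 at 50.5 CPM, Obp58b in P2 at 0.389 CPM and Obp83cd in M3 at 4.46 CPM. Of 53 groups examined with Dixon's criterion, 5 met it, where chance gives about 1 in 20.

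The mating effect differed between heads and abdomens for 13 members. On the log2 scale, heads minus abdomens, the differences were -4.02 for Obp19c, -3.58 for Obp56a, -2.12 for Obp99b, -1.65 for Obp56d, -1.61 for Obp44a, -1.24 for Obp8a and -1.17 for Obp83ef. They were -1.10 for Obp19b, which was below the filter in abdomens, and -0.99 for Obp83cd. They were -0.93 for Obp57c, -0.75 for Obp99a, -0.73 for Obp57b and -0.72 for Obp99c. Adjusted p-values of edgeR's quasi-likelihood test ran between 7.3e-07 and 0.0474.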

How the results depend on the processing

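The count of members called in abdomens was 7 with run 2 alone, where 13 members passed the filter, and 9 to 11 with 1 replicate left out, 1 of them lower (Obp57a) without virgin replicate 2. In heads it was 0 without the 3 protease-rich heads, where fewer samples entered, and 1 to 7 with 1 replicate left out. The counts were 0 for P minus M in both tissues, 32 for head minus abdomen and 10 to 13 for the difference in mating effect, with 1 replicate left out. With a replicate block, 9 members were called in abdomens, 7 in heads, and 0 and 0 for P minus M. Within a tissue the labels do not say if equal numbers pair the samples. Over 18 libraries the block paired the head and the abdomen of the same group and number. It gave 33 for head minus abdomen and 12 for the difference. Under muscle and tubule scaling 13 abdominal changes became negative, against a median of -0.96 over all genes. Of the members that passed with all libraries and TMM they were Obp44a -0.10, Obp56e -0.23, Obp57c -0.41, Obp99a -0.37 and Obp99c -0.23, and of the others Obp18a -0.40, Obp19d -0.53, Obp49a -0.62, Obp57b -0.64, Obp69a -0.63, Obp83a -0.65, Obp83b -0.50 and Obp99b -0.63. In heads, 6 antennal members, none of them called, were negative without virgin replicate 2: with 1 replicate left out, Obp83b ran from -0.21 to 0.37, Obp69a from -0.09 to 0.40, Obp83a from -0.09 to 0.50, Obp28a from -0.20 to 0.24, Obp19a from -0.08 to 0.43 and Obp59a from -0.15 to 0.35. Obp28a was also -0.04 without M replicate 1, -0.04 without P replicate 2, -0.09 without the 3 protease-rich heads and -0.01 with the protease covariate. Where no cause stands beside a value, the cause was not tested. At this depth 18 members were below the filter in every model that used it.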
